A study of Mus musculus with 2 samples.

Results

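The angiopoietin and Tie group comprises the receptor tyrosine kinase genes Tek (which encodes Tie2) and Tie1, the ligand genes Angpt1 and Angpt2, the receptor phosphatase gene Ptprb, and the angiopoietin-like genes Angptl2 and Angptl4. Members were chosen by name, and a probe set was used where the platform annotation gave it to 1 of these genes and no other. This rule found 11 probe sets for 6 of the 7 genes, among 18193 genes represented on the arrays. No probe set was annotated to Angptl2, which has no value here.

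The cells were bEnd3, an endothelial line from mouse brain microvessels of the BALB/c strain, transformed by polyoma middle T antigen and grown in medium with 15% serum. Retrovirus from PLAT-E packaging cells carried either a Smad4 siRNA or a control siRNA into them, infected cells were selected with puromycin, so that, per the labels, both groups carry a retroviral insert and the middle T antigen. Smad4 is the common partner of the Smads that TGF-β and BMP receptors activate. RNA from 2 infections was pooled for each group and hybridised to 1 Affymetrix array, so differences lack a replicate check and no test between groups was possible. Precision is limited by there being 2 arrays.

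Tie2 is a receptor of endothelial cells that keeps vessels quiescent when it is active. Angiopoietin-1, made largely by the mural and stromal cells around a vessel, activates it. Angiopoietin-2, made by endothelial cells themselves, acts as a weak or context-dependent ligand that loosens vessels. Tie1 is a related receptor without a firmly established ligand of its own and modulates Tie2, and the phosphatase VE-PTP (Ptprb) removes phosphate from Tie2 and from the VE-cadherin complex. Angiopoietin-like proteins share the fold of the angiopoietins but do not bind Tie2. Angptl4 inhibits lipoprotein lipase and is induced by fasting, PPAR ligands and hypoxia.

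Signals were quantile-normalized, and each array's median signal of 22.8 served as a floor below which a probe set was not counted as measured. Where 1 array was below it, "at least N-fold" gives the brighter signal divided by the floor, a bound. All values come from the probe set of highest mean signal for a gene unless another is named. A gene is counted as higher or lower from 2-fold.

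The arrays did not match their labels in every check. Smad4, the targeted gene, had log2 ratios from 0.25 to 0.58 over its 3 probe sets (from -0.12 to 0.21 in the values as deposited), so its transcript was not lower. The sample is therefore called the labelled array, for the array labelled Smad4-siRNA, and the Control-siRNA sample the control array. "Higher" and "lower" state a direction on the labelled array against the control array and not a response to loss of Smad4. Xist had a signal of 4476 there and 20.7 on the control array by its brightest probe set, whereas Uty, Kdm5d and Eif2s3y, all Y-linked, had 4.03, 4.69 and 0.349 there and 112, 122 and 324 on the control array. The labels give 1 cell line for both arrays. Whether both held cells of that line was not tested, and every ratio below is a difference between these arrays, whatever cells they held. Endothelial markers were lower in 14 of 15 measured cases, with summed signals of 1106 and 25370.5 over 16 genes. Fibroblast markers were higher in 9 of 9, with sums of 25708 and 187, and pericyte and smooth muscle markers in 5 of 6, with sums of 3226 and 107. Only 2 fibroblast markers reached the floor on the control array. Fbln1, counted as higher by a bound, had a log2 ratio of -0.19 at its 1 probe set measured on both arrays. Flt1, counted as lower, had probe sets from -1.22 to 0.14. In RNA from whole cultures, fewer cells of a type, less RNA per cell and cells of another source cannot be told apart.

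The members split into receptors and phosphatase on the low side and ligands with Angptl4 on the high side. Tek, Tie1 and Ptprb were at least 2-fold lower (3 of 6) and Angpt1, Angpt2 and Angptl4 at least 2-fold higher (3 of 6), with none between. Of all 11581 genes at or above the floor on at least 1 array, 15.8% were lower and 16% higher by the same rule, which counts bounds. The members' median log2 ratio was -0.54, and 0.04 with bounds in place of unmeasured sides, against -0.14 and -0.11 over all genes. The median near 0 lies between 3 large values on each side.

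**Figure D1:**
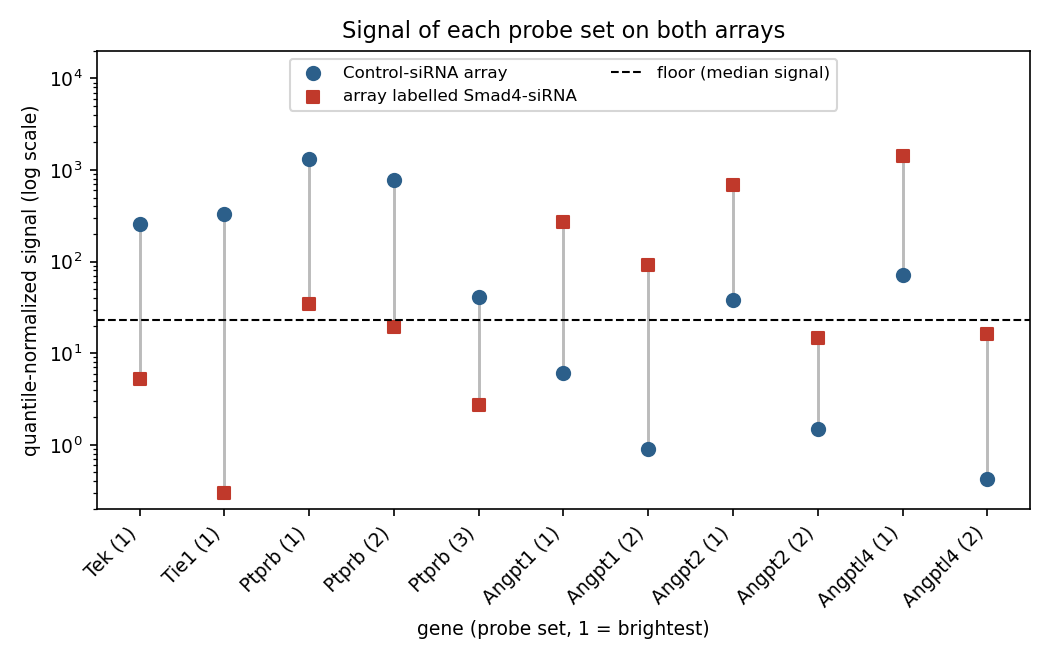
Quantile-normalized signal (vertical log axis) of each of the 11 probe sets on the control array (circles) and the labelled array (squares), joined by a line, with the floor of 22.8 dashed. Tek, Tie1 and Ptprb lie higher on the control array, and both angiopoietins and Angptl4 lie higher on the other.

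Both receptor genes were measured on the control array only. Tek lies on mouse chromosome 4 (GRCm38.p6, chr4:94739086-94874976) and had 1 probe set, with a signal of 5.19 on the labelled array and 260 on the control array. Its signal was 11.4 times the floor on the control array and below the floor on the other, so it was at least 11.4-fold lower. The signals as deposited, before normalization, were 5.53 and 285.

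Tie1, on the same chromosome (chr4:118471191-118489849), also had 1 probe set, with signals of 0.301 and 334. It was at least 14.7-fold lower, a bound set by the floor. The deposited signals were 0.295 and 373. With a single probe set each, Tek and Tie1 have no check from a second one.

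The letters before the Tie1 start are shown because the gene is 1 of the 2 Tie receptor genes whose signal lay below the floor on the labelled array, and ETS factors, which endothelial genes commonly use, are among the factors known to act on Tie promoters. The window is the 250 bases before the start, from RefSeq's GRCm38.p6 table (chr4:118489850-118490099, minus strand), written 5′ to 3′. Matches on either strand to GGAAG, 1 form of the ETS core, are in capitals. Other forms of that core were not searched.
Tie1: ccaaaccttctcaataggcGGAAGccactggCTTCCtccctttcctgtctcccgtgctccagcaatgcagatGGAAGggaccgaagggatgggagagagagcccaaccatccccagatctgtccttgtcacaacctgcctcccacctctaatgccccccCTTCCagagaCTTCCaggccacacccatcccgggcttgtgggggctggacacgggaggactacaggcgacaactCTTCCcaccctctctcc
The window held 6 matches to GGAAG. At least 1 match was found in 64.1% of 32851 RefSeq promoter windows of the same length and at least 6 in 0.344%. GATAA, 1 form of the GATA-factor site (in 22.6% of windows), had no match in it on either strand. Nor had CAGAC, 1 form of the Smad site (in 42.2%), so no matches of different motifs overlapped. The Tek window, which lies largely inside the gene's annotated span and is not printed, held no match to any of the 3 motifs. That of Angptl2 held 2 to GGAAG and none to the others. A match is a stretch of letters and does not show that a factor binds.

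Ptprb (chr10:116275502-116389538) had the largest log2 ratio in size among the 3 members measured on both arrays. Tek, Tie1 and Angpt1 have bounds only and cannot be ranked against it. Its brightest probe set had signals of 34.4 on the labelled array and 1318 on the control array, both above the floor, and a log2 ratio of -5.26 (38.3-fold lower). This was the fifth lowest ratio of the 9479 genes measured on both arrays. The other probe sets had signals of 19.5 against 776 and of 2.71 against 41.0. The former was at least 34.1-fold lower, and the latter, whose control signal lay close to the floor, had a bound of 1.80-fold. All 3 probe sets were brighter on the control array, in the deposited values as well. The SD of log2 ratios between probe sets that share a gene, pooled across 4546 genes, was 0.47 and stands in for a technical error. It covers the spread between probe sets and not that between arrays or cultures.

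The ligand genes went the other way. Angpt1, on chr15:42424667-42676977, had signals of 273 on the labelled array and 6.06 on the control array, and was at least 12.0-fold higher. Its second probe set had signals of 92.2 and 0.912 and was at least 4.05-fold higher. Both probe sets reached the floor on the labelled array alone.

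Angpt2 (chr8:18690263-18741562) was measured on both arrays, with signals of 693 and 38.4 and a log2 ratio of 4.17 (18.0-fold higher). Its control signal was 1.69 times the floor. A second probe set was below the floor on both arrays, at 14.8 and 1.50, and gives no fold. The genes for the activating ligand and for the context-dependent ligand thus lay on the same side. Signals of different probe sets are not on a common scale, so these values do not say which ligand was more abundant.

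Angptl4, the lipase inhibitor gene (chr17:33774900-33781575), had signals of 1425 and 71.1 and a log2 ratio of 4.33 (20.0-fold higher). The probe set behind this value carries a suffix for sequence shared between transcripts. The gene's other probe set was below the floor on both arrays, at 16.2 and 0.424. Without the suffixed probe set Angptl4 has no measured value.

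Angpt1 and the low members lay with different marker groups. Angpt2, which endothelial cells make, was instead higher on the array where 14 of 15 measured endothelial markers were lower. The markers of mural cells and fibroblasts, the cell types that make Angpt1 in tissue, were in most measured cases higher on the array where Angpt1 was higher. The muscle filament gene Des was the exception, with signals of 13.7 there and 36.2 on the control array. Acta2, the smooth muscle actin gene, had signals of 1634 and 33.5, and Pdgfrb, the receptor that marks pericytes, 968 and 1.03. Among the other mural markers, Myh11, Cnn1, Rgs5, Kcnj8 and Abcc9 were below the floor on both arrays, as were Lum and Thy1 of the fibroblast list. The fibroblast collagen genes Col1a2 and Col3a1 had 7389 and 6046 on the labelled array and 19.3 and 8.02 on the other. Tek, Tie1 and Ptprb are genes of endothelium, and Emcn and Egfl7, endothelial markers of high signal, had 4.68 and 247 on that array against 3092 and 3471. Markers of other cells were few. Aldoc and Slc1a3 were the only astrocyte markers of 6 to reach the floor and were at least 6.39-fold and 2.71-fold higher. Of the 2 measured leukocyte markers, Cd68 was 23.3-fold lower and Csf1r had a log2 ratio of -0.28. The epithelial markers Epcam and Krt19 had bounds of 3.58-fold and 1.73-fold on the high side. Among adipocyte markers, Retn was at least 2.78-fold higher and Lipe had a log2 ratio of -0.12. The part of all these markers in the members' values was not tested.

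**Figure D2:**
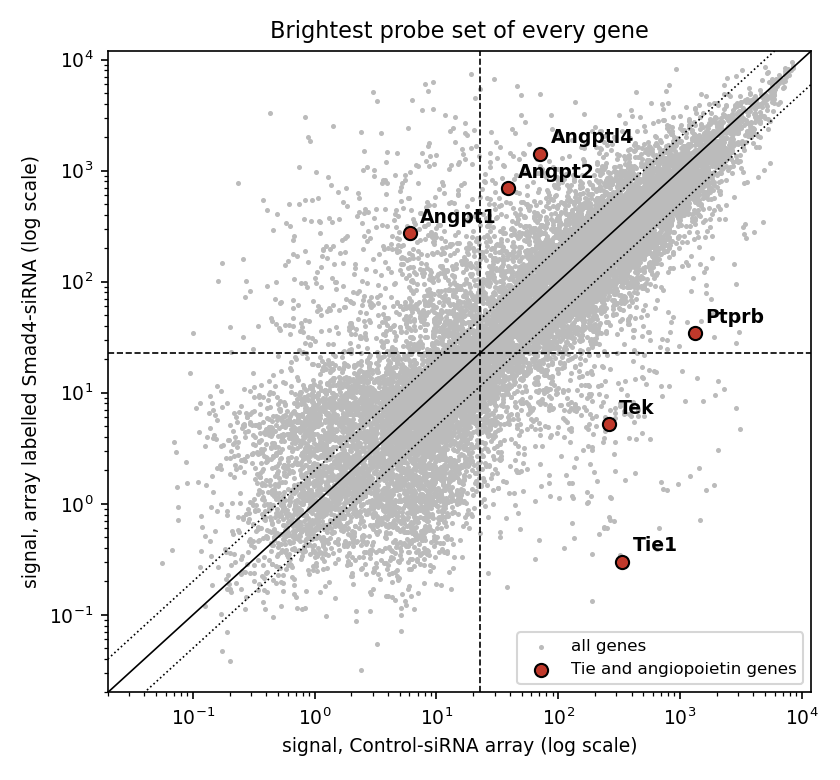
Signal of the brightest probe set of each of 18193 genes on the control array (horizontal log axis) and the labelled array (vertical log axis), with equality (solid), 2-fold (dotted) and the floor (dashed) and the 6 members in red. Ptprb, Tek and Tie1 lie below the 2-fold lines, and Angpt1, Angpt2 and Angptl4 above.

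Genes of like signal were sought by the distance over the log2 signals of both arrays, which has only 2 values for each gene. For Tek, Tie1 and Angpt1 1 of these lies below the floor, where signals have no reliable order, so the distances only describe the normalized values. Kctd4 and Slc25a45 lay nearest to Tek, at distances of 0.03 and 0.15, and Eif2s3y and Gimap5 nearest to Tie1, at 0.22 and 0.86. The genes nearest to Ptprb were Sorbs2 (0.39) and Cdh5 (0.41), the VE-cadherin gene. Nearest to Angpt1 were Sema5a (0.13) and Cers6 (0.14), to Angpt2 Il13ra1 (0.16) and Igsf3 (0.25), and to Angptl4 Zcchc24 (0.17) and Htra1 (0.33).

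Tek stood beside other genes that were low on the same array. Of the 4 represented genes on either side in RefSeq's order, 5 were measured, and Caap1 (at least 8.34-fold), Plaa (29.3-fold), Ift74 (6.97-fold), Mysm1 (8.24-fold) and Jun (16.2-fold) were lower, and the labelled array had each of them under the floor. Tie1, on the same chromosome, had mixed neighbours, with Med8 4.11-fold and Ebna1bp2 4.30-fold lower and Hyi 3.05-fold and Cdc20 2.45-fold higher. Elovl1 lay between. Near Ptprb, the 3 measured neighbours lay within 2-fold or had a bound under it. Around Angpt1, Zfpm2 (8.95-fold), Rspo2 (at least 7.10-fold) and Emc2 (2.27-fold) were higher and 3 further measured genes lay between. Around Angpt2, Kbtbd11 (at least 4.46-fold) and Xkr5 (at least 2.88-fold) were higher and 3 of 5 measured genes lay between. Around Angptl4, Kank3 was 12.6-fold lower and 6 of 7 measured genes lay between.

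**Figure D3:**
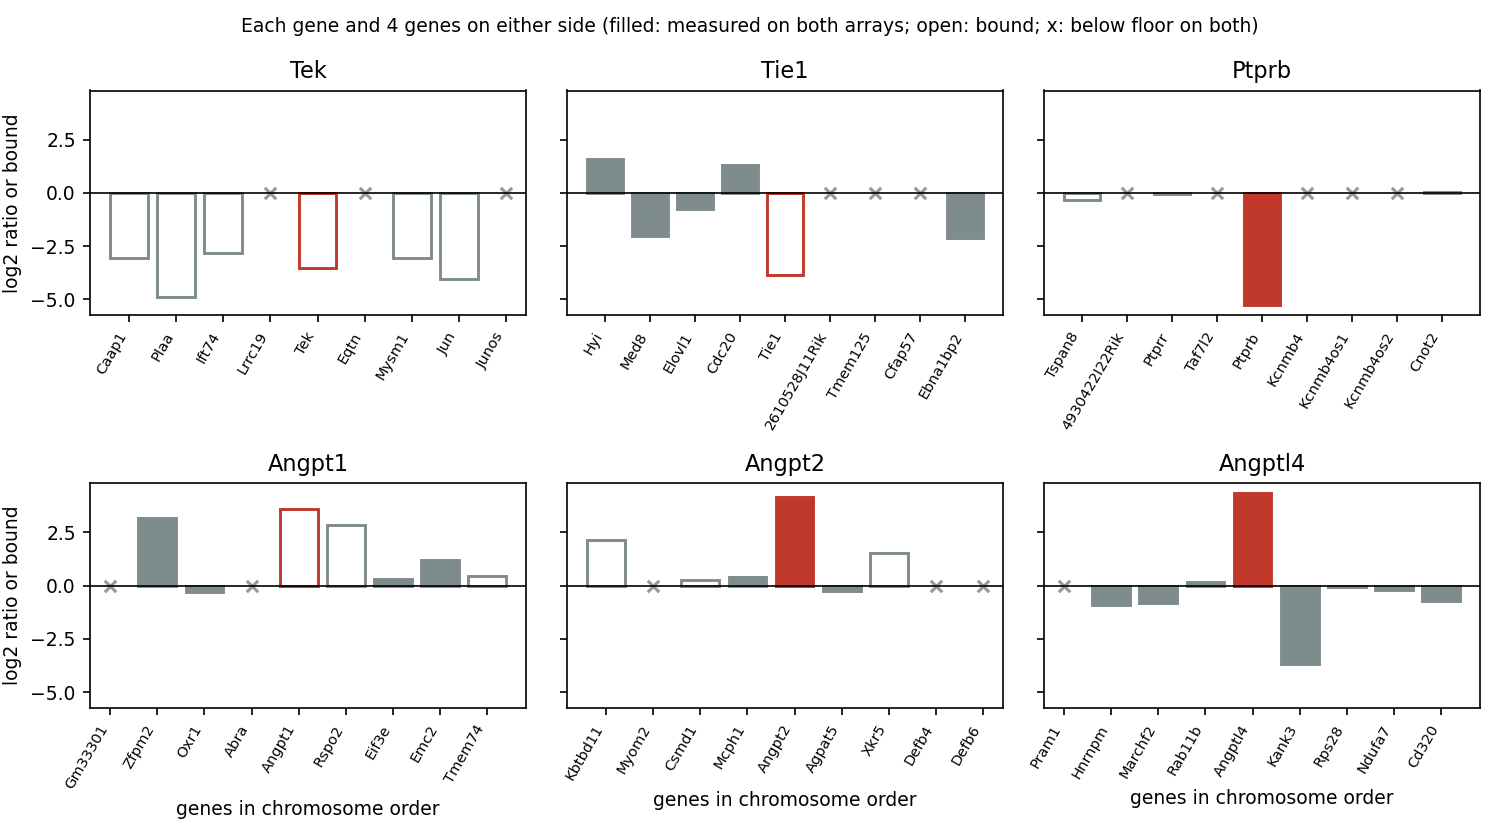
Log2 ratio (filled bars) or bound (open bars) of each member (red) and of the 4 represented genes on either side in chromosome order (grey), labelled minus control, with a cross for genes below the floor on both arrays. All 5 measured neighbours of Tek are lower, while the neighbours of Tie1 go both ways.

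The other angiopoietin family genes gave small or single-sided signals. Of 5 listed, 3 were measured on at least 1 array, 1 was lower and none was higher. The lower share was 33.3%, beside 15.8% lower and 16% higher over all genes. With the floor at the 75th percentile 0 were lower, and with it at the 25th 2 were lower and 1 higher. Angptl6, a liver-derived family member, had signals of 54.0 and 197 and was 3.65-fold lower. Angptl1 had 34.4 and 21.1 and a bound of 1.51-fold, and Angpt4, the third angiopoietin of mice, 26.1 and 3.56 and a bound of 1.15-fold.

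Genes that carry the Tie2 signal inside the cell went both ways. Of 16 measured, 5 were higher and 2 lower (4 lower as deposited), and 9 lay between, with Dok2 among these having a bound only. The higher and lower shares were 31.25% and 12.5%, beside 16% and 15.8% over all genes. The median over probe sets gave 3 higher and 1 lower, and leaving out suffixed probe sets 4 higher and 1 lower. Nos3, the endothelial nitric oxide synthase that Akt activates, was 102-fold lower, with signals of 28.0 and 2859. Foxo3, a forkhead factor that Akt inhibits, was 4.76-fold higher, and Pik3r1, the regulatory subunit of PI3-kinase that docks on Tie2, 2.93-fold higher. The Pik3r1 probe sets measured on both arrays had log2 ratios from 0.56 to 1.55. Grb14, an adaptor that binds Tie2, was at least 12.9-fold higher, while Dok2, another docking protein, had a bound of 1.15-fold. Foxo1, the Akt-inhibited factor that drives Angpt2 in endothelium, had signals of 416 and 312 and a log2 ratio of 0.42.

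FOXO target genes were higher in 5 and lower in 1 of 12 measured cases, and 6 lay between. Shares of 41.7% higher and 8.33% lower stand beside 16% and 15.8% over all genes. With the floor at the 75th percentile, 3 were higher. The cell cycle inhibitor gene Cdkn1b was 4.33-fold, the ubiquitin ligase gene Fbxo32 3.88-fold and the insulin receptor substrate gene Irs2 at least 3.02-fold higher. Klf2, a flow-induced factor of endothelium, was 8.24-fold lower. The list's median log2 ratio was 0.69, beside -0.14 over all genes. Bcl2l11, counted as higher, and Sesn3 had both signs among their probe sets, and those of Fbxo32 had log2 ratios from 0.80 to 1.96.

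The partners of Ptprb at the junction differed among themselves. Cdh5 was 34.0-fold lower, with signals of 44.2 and 1501, and Kdr, the VEGF receptor gene, 26.1-fold lower. The catenin genes Jup, Ctnnb1 and Ctnnd1, which most adherent cells express, had log2 ratios of 0.29, -0.21 and 0.23, and those of Ctnnb1 and Ctnnd1 had both signs among their probe sets. Ptprj, a phosphatase of the same R3 subfamily as Ptprb, was at least 6.91-fold higher. None of its 4 probe sets was measured on both arrays. In all, 1 of 6 measured genes was higher, 2 were lower and 3 lay between. The higher share of 16.7% was close to the 16% over all genes. The lower share was 33.3%, beside 15.8%. The count of higher genes was 0 with the median over probe sets and with the floor at the 75th percentile.

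Among integrin subunits that angiopoietins or angiopoietin-like proteins bind, 1 of 5 measured was higher and none lower. The higher share of 20% was close to the 16% over all genes, of which 15.8% were lower. Itgb5 was 40.8-fold higher, with signals of 1286 and 31.5. Itga5 and Itgb3 had log2 ratios of 0.59 and -0.55.

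The lipase partners of Angptl4 were measured in 3 of 5 cases, of which 1 was lower and none higher. The lower share was 33.3%, beside 15.8% lower and 16% higher over all genes. Gpihbp1, the endothelial anchor of lipoprotein lipase, was at least 14.3-fold lower, with signals of 10.8 and 326. Lpl itself had a bound of 1.16-fold, and the lipase maturation gene Lmf1 a log2 ratio of -0.25. Of 6 measured PPAR and hypoxia regulators, 2 were higher (33.3%, beside 16% over all genes) and 4 lay between. Arnt, the partner of the hypoxia factors, was 4.20-fold and Rxra, the partner of the PPARs, 3.62-fold higher, and Hif1a had a log2 ratio of 0.89. Over probe sets measured on both arrays, log2 ratios ran from 0.67 to 2.44 for Arnt, 0.32 to 1.86 for Rxra and 0.89 to 1.62 for Hif1a. Ppara and Pparg were below the floor on both arrays.

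PPAR target genes were higher in 3 and lower in 1 of 8 measured cases. Shares of 37.5% higher and 12.5% lower stand beside 16% and 15.8% over all genes. Pdk4, a kinase that restrains pyruvate use, was at least 34.2-fold higher, Acaa2 of fatty acid oxidation 2.73-fold and the lipid carrier gene Fabp4 2.57-fold. The Fabp4 probe sets measured on both arrays had log2 ratios from 0.50 to 1.36. Hilpda, a hypoxia-inducible lipid droplet gene, was 3.61-fold lower. Leaving out suffixed probe sets gave 2 higher and 0 lower PPAR target genes, and the median over probe sets 2 higher. The adipocyte genes Adipoq, Cidec and Lep were below the floor on both arrays.

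Of 9 genes listed as ETS and GATA factors linked to Tie promoters, 5 were lower (55.6%, beside 15.8% over all genes). None was higher, though 1 was as deposited, after centring on the median and with the floor at the 25th percentile. The list includes Tal1, which belongs to neither family. Erg was at least 30.7-fold, Tal1 at least 14.2-fold and Fli1 at least 13.6-fold lower, and none reached the floor on the labelled array. Ets1 was 2.70-fold and Ets2 2.03-fold lower, while Gata2, with both signs among its probe sets, had a log2 ratio of 0.68. Gata3 had a bound of 1.72-fold on the high side, so neither GATA gene was counted as lower. Fli1 and Gata3 were named after their values were seen. The median over the list was -1.02.

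Over the 68 measured genes of the 9 pathway lists, 17 were higher, 13 were lower and 38 lay between. The shares over all genes were 16% higher and 15.8% lower.

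**Figure D4:**
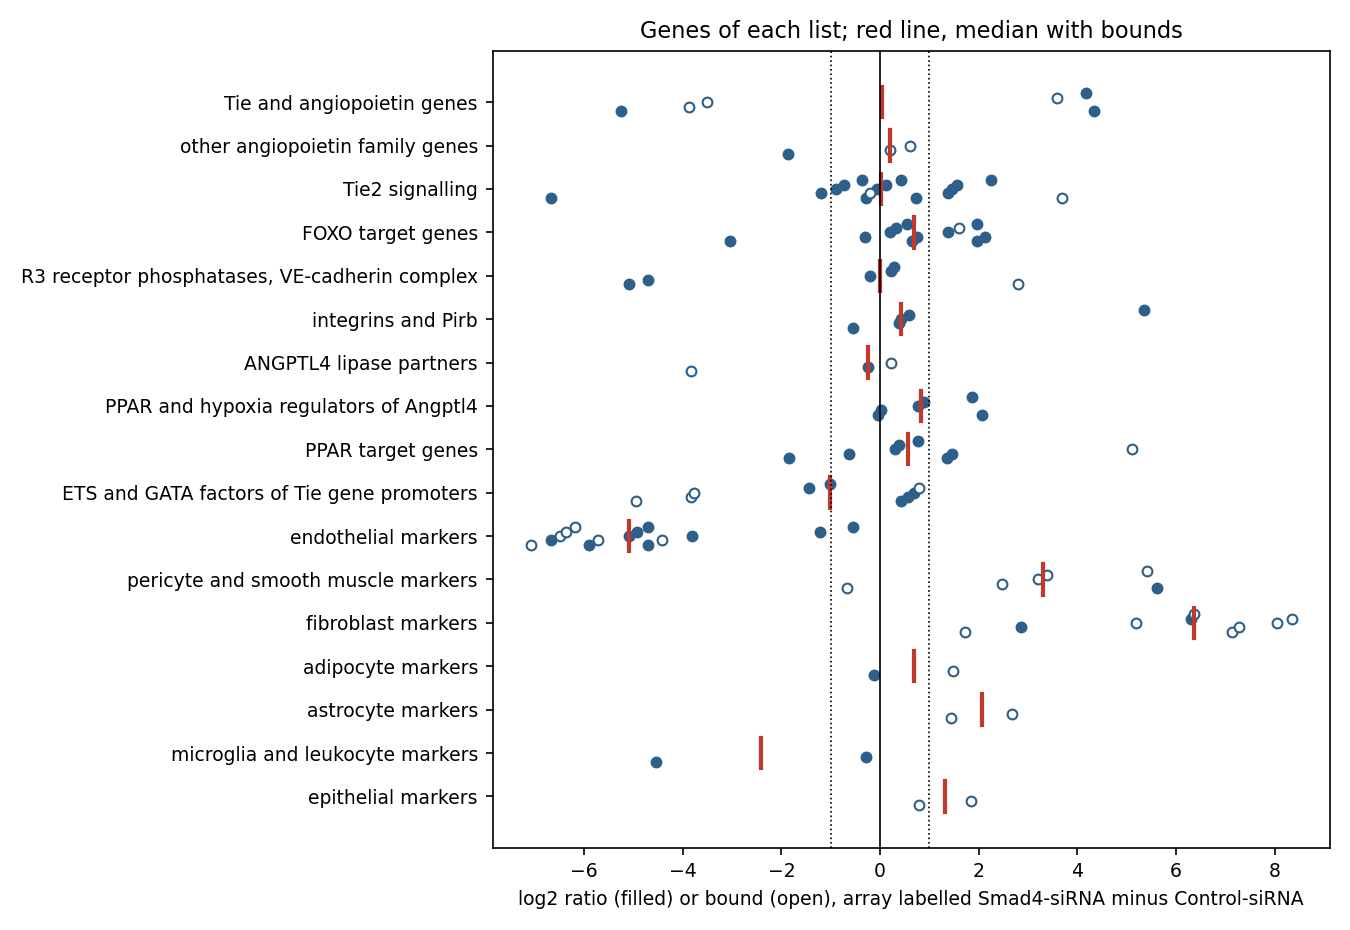
Log2 ratio (filled points) or bound (open points) of each measured gene of the members, the 9 pathway lists and the 7 marker lists, labelled minus control, with the median including bounds as a red line and 2-fold as dotted lines. The members form a group on each side of 0 and none between the dotted lines.

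Each direction among the members held under every setting that gave a value. Tek, Tie1, Ptprb, Angpt1 and Angpt2 stayed past 2-fold in 8 of 8 alternatives and Angptl4 in 7 of 7. The values of Ptprb ran from -5.34 to -3.37 and those of Angptl4 from 2.74 to 4.58.

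**Figure D5:**
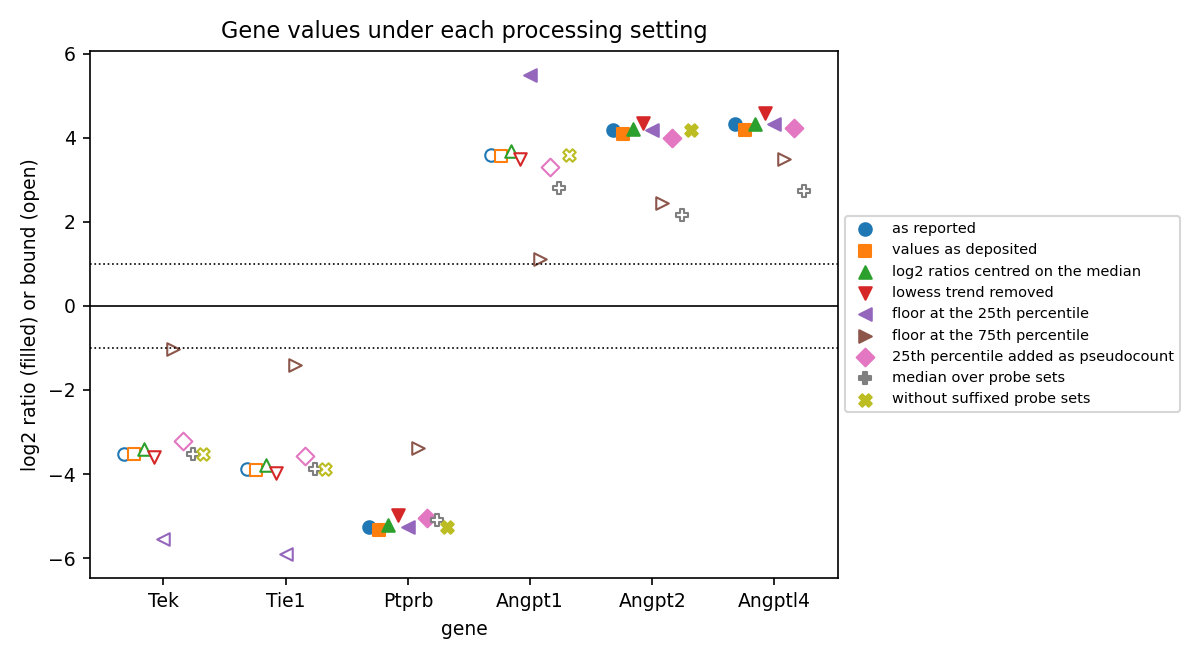
Log2 ratio (filled) or bound (open) of the 6 members, labelled minus control, under the reported setting and each alternative, with 2-fold as dotted lines. No value crosses 0, which a bound cannot do by its construction, and the bounds of Tek, Tie1 and Angpt1 move with the floor.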

How the data were processed

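The deposited table holds linear probe set intensity from the authors, for which the submitters' processing notes name MAS5, and whose version and scaling target were not given in the sources used here. Of 45101 probe sets, 64 controls were left out. The 2% trimmed means of the arrays were 114 and 138, a difference of -17.2%, and the log2 signals were quantile-normalized (numpy 2.4.6, pandas 2.3.3). Gene names came from the platform annotation, sometimes old, with symbols updated by Entrez number through RefSeq's GRCm38.p6 table. In all, 34945 probe sets had 1 gene, 932 several and 9160 none. The lists of pathway and marker genes, the motifs and the members were chosen with earlier results of these data known. Named from each pathway list were the 3 genes measured on both arrays farthest from 0 and the 2 largest bounds. Named from marker lists were the genes of highest signal. The fold calls were tested on simulated data, in which changes were planted only in genes far above the floor. That test did not cover planted changes seen as bounds. Foxo1, Fli1, Gata3, Ctnnb1, Ctnnd1, Ppara, Pparg, Bcl2l11, Sesn3, Des and markers below the floor fell outside these naming rules. They were named after their values were seen. Alternatives covered scaling, floor, pseudocount and the choice of probe set.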

Additional observations from a re-analysis of the deposited data

How the results depend on the processing

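The floor and the choice of probe set moved the members' values, and no direction changed, though a bound cannot change sign when only the floor moves. Raising the floor to the 75th percentile gave bounds of -1.03 for Tek, -1.40 for Tie1, -3.37 for Ptprb, 1.11 for Angpt1, 2.45 for Angpt2 and 3.49 for Angptl4. With one at the 25th percentile Tek had a bound of -5.54 and Tie1 of -5.90, and Angpt1 was measured on both arrays at 5.50. The median over probe sets gave bounds of 2.80 for Angpt1, 2.15 for Angpt2 and 2.74 for Angptl4. Leaving out suffixed probe sets removed Angptl4 and took the members' median from -0.54 to -5.26, since 5 genes were left. Over all genes, the count of higher genes was 947 and that of lower genes 901 with the floor at the 75th percentile, and 2752 were lower with it at the 25th. Higher genes made up 50.3% of calls as reported and from 43.4% to 57.0% under the other scalings. No paired analysis was possible because each group has 1 array.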
